A study of Mus musculus with 15 samples.

Results

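The 8 genes described here are the fibroblast growth factor (FGF) receptors Fgfr1, Fgfr2, Fgfr3, Fgfr4 and Fgfrl1 and the FGF ligands Fgf1, Fgf2 and Fgf7, measured in a mouse podocyte line with and without mechanical stretch. They were named by symbol, and 8 of 8 were found among the 55416 genes of the count table. They were chosen by their gene counts in stretched against unstretched samples, in an earlier look at these data, so their values under stretch are given as a description and support nothing. The RNA came from SVI cells, a conditionally immortalised mouse line of podocytes, the epithelial cells that wrap the capillaries of the kidney glomerulus. All 15 samples were differentiated cells on flexible silicone membranes, sequenced as stranded poly(A) libraries. Experiment 1 had 6 low-stretch samples, labelled with a membrane deflection of 5 to 6 mm, and 3 unstretched samples. Experiment 2 had 3 high-stretch samples, labelled with 7 to 8 mm, and 3 unstretched samples. Amplitude and experiment therefore divide the stretched samples in the same way and cannot be told apart, and each stretched group was set against the unstretched samples of its own experiment. Every sample is the same line, and nothing in the labels says that the replicates were separate cultures, so p-values measure only the spread between these samples.

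FGFs are secreted proteins that bind receptor tyrosine kinases together with heparan sulfate on the cell surface. The bound receptor activates the ERK cascade through adaptor proteins, and the cascade raises ETS transcription factors such as Etv4 and Etv5 and the feedback inhibitors of the Sprouty, Spred and dual-specificity phosphatase families. In kidney, FGF signalling is best known for its part in the outgrowth of the ureteric bud and in the nephron progenitors.

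Fgfr1, Fgfr2 and Fgfr3 each carry a pair of mutually exclusive exons for the end of the third immunoglobulin-like domain, called IIIb and IIIc, and the exon used sets which ligands bind. The pair of Fgfr3 is printed because the receptor results below turn on this gene and its IIIb share, and the IIIb exon of Fgfr2 is printed beside it as the form that Fgf7 binds. Each line runs 5′ to 3′ along the transcript, with the alternative exon in capitals and 15 bases of the shared neighbouring exons on each side in lower case, from the GENCODE M21 transcripts (GRCm38).
Fgfr3 IIIb: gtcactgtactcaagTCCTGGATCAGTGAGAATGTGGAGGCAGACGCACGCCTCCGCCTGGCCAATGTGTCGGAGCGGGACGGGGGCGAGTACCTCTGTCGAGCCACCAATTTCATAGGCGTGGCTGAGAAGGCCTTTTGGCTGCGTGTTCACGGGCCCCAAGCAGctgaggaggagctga
Fgfr3 IIIc: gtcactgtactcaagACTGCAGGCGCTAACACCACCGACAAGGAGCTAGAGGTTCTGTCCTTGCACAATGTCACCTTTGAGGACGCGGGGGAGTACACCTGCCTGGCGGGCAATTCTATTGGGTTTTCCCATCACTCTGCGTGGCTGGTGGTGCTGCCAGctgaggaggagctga
Fgfr2 IIIb: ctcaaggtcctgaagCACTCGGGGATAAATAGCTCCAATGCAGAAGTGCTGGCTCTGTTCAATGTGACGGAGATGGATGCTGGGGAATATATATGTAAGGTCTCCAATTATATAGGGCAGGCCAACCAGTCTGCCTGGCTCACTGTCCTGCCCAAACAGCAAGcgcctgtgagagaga
In GRCm38 the Fgfr3 exons lie on the plus strand at chr5:33731281-33731431 (IIIb, 151 bases) and chr5:33732117-33732261 (IIIc, 145 bases). The Fgfr2 IIIb exon lies on the minus strand at chr7:130199758-130199905 (148 bases). All of them are internal exons of protein-coding transcripts. Within Fgfr3 the IIIb and IIIc exons were 50.6% identical, so reads from 1 exon of the pair differ from reads of the other at many bases. Between Fgfr2 and Fgfr3 the IIIb exons were 54.8% identical. The Fgfr3 gene spans chr5:33721674-33737068, with Fgfrl1 further along the same chromosome at chr5:108692382-108706924, Fgfr1 at chr8:25513654-25575718 and Fgfr4 at chr13:55152640-55168759. The ligand genes Fgf2 and Fgf7 lie at chr3:37348346-37410108 and chr2:126034658-126091185, all in GRCm38 and all on the plus strand.

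The libraries held 172.2 to 396.7 M counts each. Levels are given as CPM, the counts of a gene relative to all counts of its sample, scaled by TMM factors over the 15 samples, and a gene was called when its edgeR adjusted p over all genes tested was under 0.05. Of 11 podocyte markers, 5 reached a mean of 1 CPM, with Synpo at 319 ± 16.5 CPM (SD, n = 3) in unstretched cells of experiment 1, while the defining markers Tcf21, Foxc2 and Ptpro stayed under 0.1 CPM. All 4 markers of parietal epithelial cells, the lining of Bowman's capsule, reached 1 CPM, as did Lrp2 among 5 tubular markers, and 0 of 5 endothelial markers did. The parietal markers summed to 434 to 507 CPM in unstretched cells of experiment 1 and 473 to 767 CPM under low stretch, and to 558 to 652 CPM and 615 to 651 CPM in experiment 2. The tubular markers, nearly all Lrp2, summed to 926 to 1090 CPM and 474 to 757 CPM in experiment 1, and to 317 to 667 CPM and 249 to 425 CPM in experiment 2, so in unstretched cells of experiment 1 they stood above the podocyte sum. The podocyte markers summed to 581 to 626 CPM unstretched and 515 to 768 CPM under low stretch, and to 722 to 974 CPM and 613 to 990 CPM in experiment 2. Under high stretch the podocyte transcription factor Wt1 fell (log2 fold change -2.36 ± 0.45, SE, edgeR adjusted p = 0.0311) and the parietal marker Cd44 rose (1.48 ± 0.26, edgeR adjusted p = 0.025). Wt1 was the only call among 7 podocyte markers tested, and Cd44 the only call among 4 parietal markers. The other parietal markers went the other way without a call: Pax2 (-0.29), Pax8 (-0.08) and Cldn1 (-0.87). Under low stretch Lrp2 fell by 0.65 (edgeR adjusted p = 0.0227) and the mesangial marker Pdgfrb fell by 0.56 (edgeR adjusted p = 0.0199). The other markers tested in these lists were not called: tubular Slc12a1 had 0.69, Myh11 had 0.50 and Gata3 had -0.06. Of 5 mesangial and smooth muscle markers 2 reached 1 CPM. This list summed to 87.6 to 105 CPM unstretched and 56.5 to 77.3 CPM under low stretch. In experiment 2 it summed to 123 to 163 CPM and 102 to 127 CPM. The part of these markers in the results below was not tested, and in a bulk sample fewer cells of a type and less RNA per cell cannot be told apart. The sample description codes form runs of neighbouring positions with 1 unstretched sample in each, 3 runs per experiment. The labels do not say what these runs stand for, and values within a run are given beside the group values.

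Among the 8 genes the receptors other than Fgfr4 had the highest levels, and Fgfr4 was close to absent. TPM values, which correct for transcript length, were summed per gene to compare levels between genes. In unstretched cells of experiment 1 the order was Fgfr2 (72.1 ± 4.9 TPM, SD, n = 3), Fgfr3 (64.6 ± 27.5), Fgfrl1 (47.7 ± 1.3), Fgfr1 (22.2 ± 8.0), Fgf1 (2.46 ± 0.80), Fgf2 (1.55 ± 0.34), Fgf7 (0.608 ± 0.188) and Fgfr4 (0.0254 ± 0.0148). The ranges over samples overlapped between Fgfr2 and Fgfr3, between Fgfr3 and Fgfrl1 and between Fgf1 and Fgf2, and the other neighbours in this order did not overlap. In unstretched cells of experiment 2, Fgfrl1 (68.6 ± 1.6 TPM) and Fgfr3 (65.8 ± 19.9) led, and Fgfr2 (40.1 ± 19.6) and Fgfr1 (18.9 ± 4.9) followed. The ranges of Fgfrl1, Fgfr3 and Fgfr2 overlapped there from neighbour to neighbour, and those of Fgfr1 and of each ligand stood apart. Fgfr3 ranked 2 among the 8 genes in both unstretched groups and 4 in both stretched groups, at 13.1 ± 7.2 TPM (n = 6) under low stretch and 8.26 ± 0.97 TPM (n = 3) under high stretch.

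Fgfr3, a receptor tyrosine kinase best known as a brake on growth of the long bones (ENSMUSG00000054252), was lower in stretched cells of both experiments. Unstretched replicates 1, 2 and 3 of experiment 1 had 88.3, 65.0 and 143.7 CPM, and the 6 low-stretch samples had 12.3 to 38.9 CPM with a median of 19.8. The groups did not overlap. Low-stretch replicates 5 and 6 were the highest of their group, at 32.6 and 38.9 CPM, and belong to the run of unstretched replicate 3, the highest of all in that experiment. The log2 fold change was -2.13 ± 0.36 (SE), a 4.38-fold lower level, and Fgfr3 was called. Within the runs every low-stretch sample was lower than its unstretched sample, by 3.70- to 7.18-fold. Without unstretched replicate 3 the log2 fold change was -1.77 and Fgfr3 was no longer called.

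In experiment 2, unstretched replicates 1, 2 and 3 had 163.6, 133.1 and 157.3 CPM of Fgfr3, and the high-stretch replicates had 16.8, 25.0 and 24.1 CPM. These groups did not overlap either, and the lowest unstretched sample was well above the highest stretched sample. The log2 fold change was -2.77 ± 0.21 (SE), a 6.82-fold lower level, and Fgfr3 was called, as it was with each of the 6 samples left out in turn. Within the runs the level was 5.32- to 9.73-fold lower. In GENCODE M21 the gene shares 13.9% of its exon bases with G630022F23Rik on the other strand, which had at most 0.351 CPM in any sample. G630022F23Rik had 0.142 to 0.351 CPM unstretched and 0.0197 to 0.0846 CPM under low stretch. In experiment 2 it had 0.193 to 0.341 CPM and 0.0121 to 0.0355 CPM, so it too was lower without overlap in both experiments. The strand setting of the counting is not given in the sources used here, and the part of this overlap was not tested.

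Fgfr1, the receptor tyrosine kinase with the broadest mesenchymal expression, had higher levels in stretched cells, called in experiment 2 only. Its unstretched values in experiment 1 were 47.2, 44.8 and 21.7 CPM, and the low-stretch samples had 41.0 to 82.3 CPM with a median of 75.5. The groups overlapped, since the low-stretch samples of the run with unstretched replicate 3 (41.0 and 42.4 CPM) lay below the other unstretched samples. The log2 fold change was 0.80 ± 0.31 (SE) and Fgfr1 was not called. Within the runs 6 of 6 low-stretch samples were higher, by 0.71 to 0.97 on the log2 scale. With the run as a block the log2 fold change was 0.83 and Fgfr1 was called.

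In experiment 2, Fgfr1 had 43.6, 61.8 and 52.3 CPM unstretched and 97.3, 118.1 and 130.7 CPM under high stretch. The groups did not overlap, and the log2 fold change was 1.15 ± 0.20 (SE), a 2.22-fold higher level that was called. Each of 4 samples ended this call when left out: high-stretch replicate 1 (log2 fold change 1.25), replicate 2 (1.17) or replicate 3 (1.08), or unstretched replicate 1 (1.02).

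Fgfr2, the receptor whose IIIb form is the epithelial receptor for Fgf7, had a lower mean in stretched cells of both experiments that edgeR did not call. It had 96.8, 105.3 and 111.2 CPM in the unstretched samples of experiment 1 and 69.8 to 97.4 CPM (median 76.2) under low stretch, so the groups met at their edge. The log2 fold change of -0.37 ± 0.11 (SE) was not called by edgeR, and was called by DESeq2 (-0.36), with the run as a block (-0.38) and without low-stretch replicate 5 (-0.42). In experiment 2 it had 82.8, 75.8 and 112.1 CPM unstretched and 71.0, 52.6 and 68.5 CPM under high stretch. These groups did not overlap, and the log2 fold change of -0.48 ± 0.22 was not called. Set against the unstretched sample of its run, Fgfr2 was lower in 6 of 6 low-stretch samples, by 1.14- to 1.51-fold. It was likewise lower in 3 of 3 high-stretch samples, by 1.17- to 1.64-fold. Fgfr2 shares 3.04% of its annotated exon bases with Ctbp2 on the same strand. Ctbp2 had 93.5 to 117 CPM unstretched and 69 to 90.6 CPM under low stretch, and 86.0 to 102 CPM and 62.4 to 67.5 CPM in experiment 2, so it was lower beside Fgfr2 without overlap in both experiments. Its part in the Fgfr2 values was not tested.

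**Figure D1:**
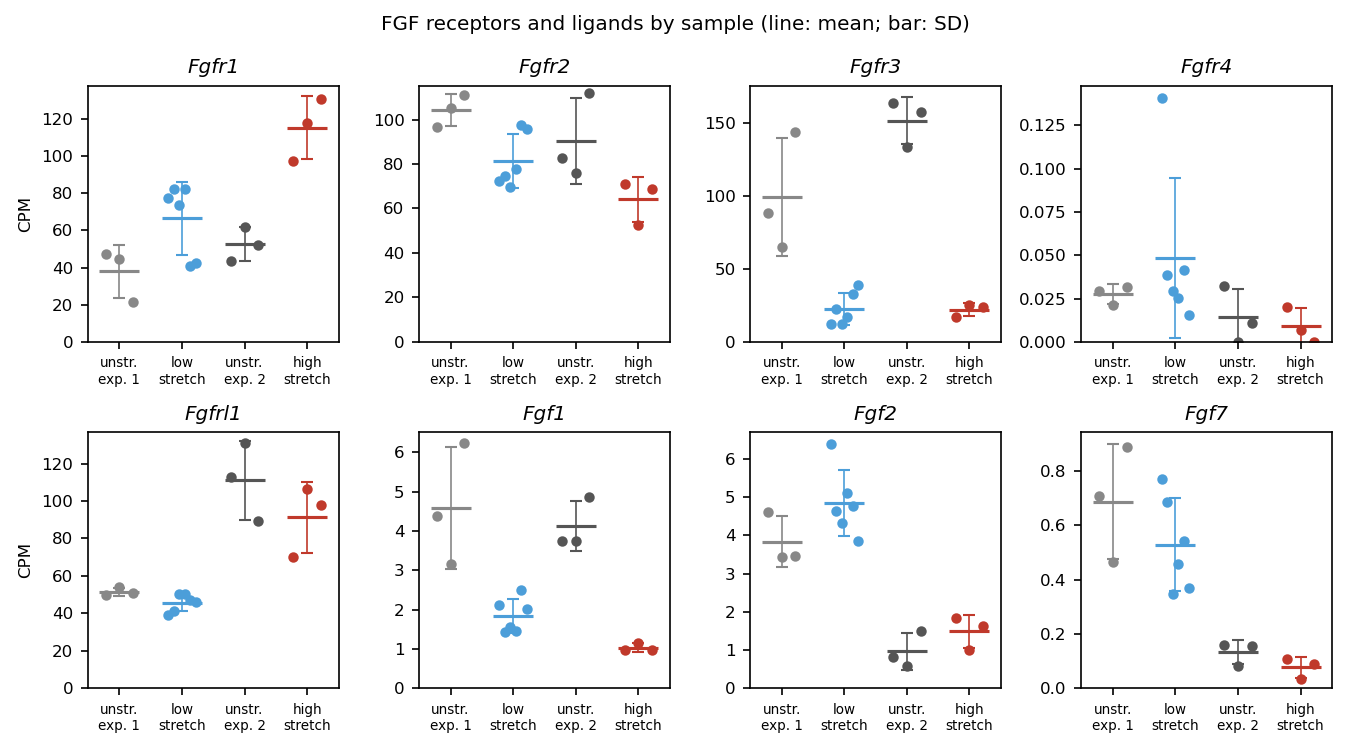
CPM of the 8 FGF genes in each sample (points), with the mean (line) and SD (bar) of each group. Stretched samples of both experiments lie below every unstretched sample of their experiment for Fgfr3 and Fgf1, and Fgfr4 stays under 0.141 CPM.

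Fgfrl1, a receptor that binds FGFs but has no kinase domain, had 49.6, 54.1 and 50.7 CPM unstretched and 39.3 to 50.4 CPM (median 46.5) under low stretch. In experiment 2 it had 112.7, 131.0 and 89.2 CPM unstretched and 70.1, 106.2 and 97.8 CPM under high stretch. The groups overlapped in both experiments, and the log2 fold changes of -0.18 ± 0.09 and -0.26 ± 0.21 (SE) were not called. Within the runs 6 of 6 low-stretch samples were lower, by 1.07- to 1.26-fold, and with the run as a block the log2 fold change of -0.18 was called. Fgfr4, the main FGF receptor of hepatocytes, had between 0 and 44 counts per sample. Its 2 samples with 0 counts, high-stretch replicate 3 and unstretched replicate 2 of experiment 2, allow up to 0.0121 and 0.0222 CPM, taking 3 counts as the limit and counting error only. It was tested in experiment 1 alone, where the log2 fold change of 0.81 ± 0.65 was not called, and it did not pass the filter on low counts in experiment 2.

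Of the ligands, Fgf1, which binds every FGF receptor and lacks a classical secretion signal, was lower in stretched cells of both experiments. It had 4.38, 3.16 and 6.23 CPM in the unstretched samples of experiment 1 and 1.43 to 2.49 CPM (median 1.79) under low stretch. No low-stretch sample reached the lowest unstretched sample, and the log2 fold change was -1.32 ± 0.22 (SE), a 2.49-fold lower level that was called. Within the runs 6 of 6 samples were lower, by 2.02- to 3.10-fold. Without unstretched replicate 3, the highest sample, the log2 fold change was -1.05 and Fgf1 was no longer called.

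In experiment 2, Fgf1 had 3.74, 3.76 and 4.86 CPM unstretched and 0.963, 1.16 and 0.984 CPM under high stretch. The groups stood apart, and the log2 fold change was -1.98 ± 0.24 (SE), a 3.94-fold lower level that was called. Within the runs the level was 3.25- to 4.93-fold lower. The call was lost without high-stretch replicate 1 (-1.94) or replicate 3 (-1.92).

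Fgf2, also called basic FGF and likewise released without a signal peptide, had 4.62, 3.44 and 3.45 CPM unstretched and 3.85 to 6.39 CPM (median 4.71) under low stretch, with a log2 fold change of 0.33 ± 0.17 (SE). In experiment 2 it had 0.825, 0.578 and 1.51 CPM unstretched and 1.83, 1.01 and 1.63 CPM under high stretch, with a log2 fold change of 0.62 ± 0.41. The groups overlapped in both experiments and Fgf2 was not called in either. Set against the unstretched sample of its run, Fgf2 was higher in 6 of 6 low-stretch and 3 of 3 high-stretch samples. The log2 differences were 0.007 to 0.57 and 0.11 to 1.15. Fgf2 shares 9.44% of its exon bases with Nudt6 on the other strand, which had 1.84 to 3.89 CPM, and since the strand setting of the counting is not given in the sources used here, the Fgf2 level is uncertain. Fgf7, the keratinocyte growth factor, had 0.706, 0.465 and 0.887 CPM unstretched and 0.345 to 0.770 CPM under low stretch, and at most 0.161 CPM in any sample of experiment 2. Its log2 fold changes of -0.38 ± 0.28 and -0.72 ± 0.48 (SE) were not called, on 5 to 301 counts per sample. By run, Fgf7 was lower in 5 of 6 low-stretch and 3 of 3 high-stretch samples.

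Under low stretch 2 of the 8 genes tested were called, both lower, where 5.45% of all 21672 genes tested were called. Under high stretch 3 of 7 were called, 1 higher and 2 lower, where 3.47% of 18524 genes were. The groups did not overlap for 2 of 8 genes under low stretch, against 15.3% of all genes tested, and for 4 of 7 under high stretch, against 20.6%. The median log2 fold change of the tested genes was -0.27 and -0.48, against 0.01 and -0.02 over all genes. Nothing is read from these counts, because the genes were chosen with these comparisons in view.

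**Figure D2:**
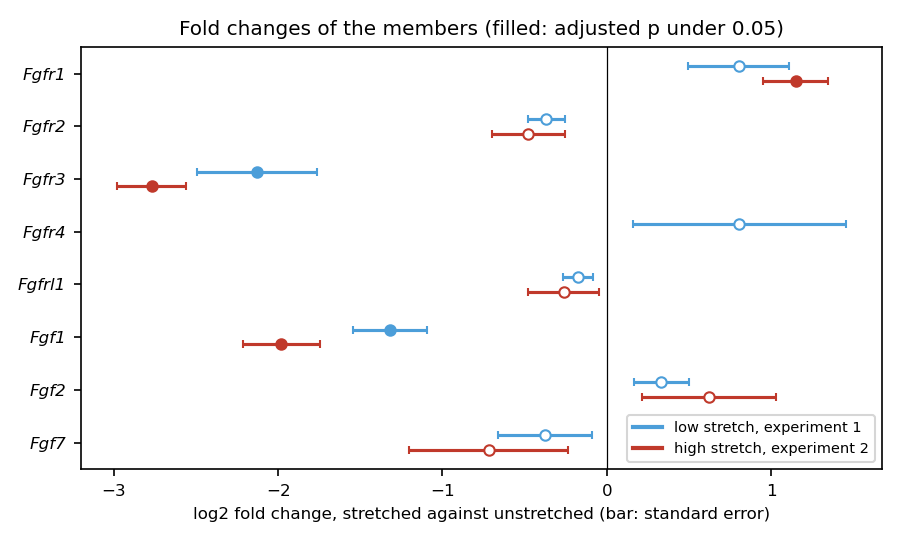
Log2 fold changes (points) with standard errors (bars) of the 8 genes, low stretch (blue) and high stretch (red) each against its own unstretched samples, filled where the edgeR adjusted p is under 0.05. Fgfr3 has the lowest value in both comparisons, at -2.13 and -2.77, and Fgfr4 has no value for high stretch.

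The stretch effects of the experiments were also set against each other in 1 fit of all 15 samples. High minus low stretch was -0.66 ± 0.51 (SE, log2 scale) for Fgfr3, -0.68 ± 0.34 for Fgf1 and 0.32 ± 0.40 for Fgfr1. For each of the 8 genes the edgeR adjusted p was 1. Over all genes, edgeR called 0 of 22015 (background 0%), with 547 at an unadjusted p under 0.05, and DESeq2 called 0. No difference between effects was thus called, which does not show that the effects were alike. At an unadjusted edgeR p under 0.05 stood 0 of the 8 genes in the main fit. With the position run as a block 3 of the 8 did, and 0 were called.

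Between the unstretched groups, a comparison the choice of genes did not use, Fgfrl1 was higher in experiment 2 than in experiment 1 (111.0 ± 20.9 against 51.4 ± 2.3 CPM, SD, n = 3 each; log2 fold change 1.09 ± 0.19, SE, edgeR adjusted p = 0.00533). Fgf2 was lower there (0.971 ± 0.483 against 3.83 ± 0.68 CPM; -1.99 ± 0.37, edgeR adjusted p = 0.00534), and so was Fgf7 (0.133 ± 0.045 against 0.686 ± 0.212 CPM; -2.36 ± 0.38, edgeR adjusted p = 0.00533). The 3 samples of each group did not overlap for these 3 genes. For Fgfr3 the log2 difference was 0.60 ± 0.28 (edgeR adjusted p = 0.0928), for Fgfr1 0.45 ± 0.30 (0.213), for Fgfr2 -0.23 ± 0.19 (0.322) and for Fgf1 -0.17 ± 0.28 (0.607). Without unstretched replicate 3 of experiment 1 the Fgfr3 difference was 0.96 and was called (edgeR adjusted p = 0.0263), and without unstretched replicate 3 of experiment 2 the Fgfr2 difference was -0.46 and was called (edgeR adjusted p = 0.00752). In all, 3 of 7 genes were called where 62.5% of 20707 genes were, 1 higher against 29.7% and 2 lower against 32.7% of all genes. Groups that do not overlap made up 72.9% of all genes here. A call in this comparison is therefore common, and what differed between the experiments cannot be told apart.

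Among the 3 abundant kinase receptors, Fgfr3 and Fgfr2 held most of the TPM in unstretched cells, and Fgfr2 and Fgfr1 in stretched cells. Fgfr3 made up 37.4%, 30.1% and 51.2% of the summed Fgfr1, Fgfr2 and Fgfr3 TPM in the unstretched samples of experiment 1, and 6.83% to 21.5% (median 10.8%) under low stretch. In experiment 2 it made up 58.1%, 51.4% and 49.9% unstretched and 9.24%, 13.0% and 11.3% under high stretch. The shares did not overlap between groups in either experiment. Fgfr1 went from 14.6% ± 6.6 (SD, n = 3) to 36.2% ± 11.5 (n = 6) under low stretch and from 15.7% ± 3.8 to 54.5% ± 5.5 (n = 3 each) under high stretch. The Fgfr2 share was 45.8% ± 4.8 and 51.2% ± 6.1 in experiment 1, and 31.2% ± 4.3 and 34.3% ± 7.4 in experiment 2. The summed TPM of the 3 receptors was 158.8 ± 24.4 unstretched and 99.8 ± 11.2 under low stretch, and 124.8 ± 43.0 and 74.5 ± 7.5 in experiment 2. These shares rest on the same samples as the gene values and have no test of their own.

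**Figure D3:**
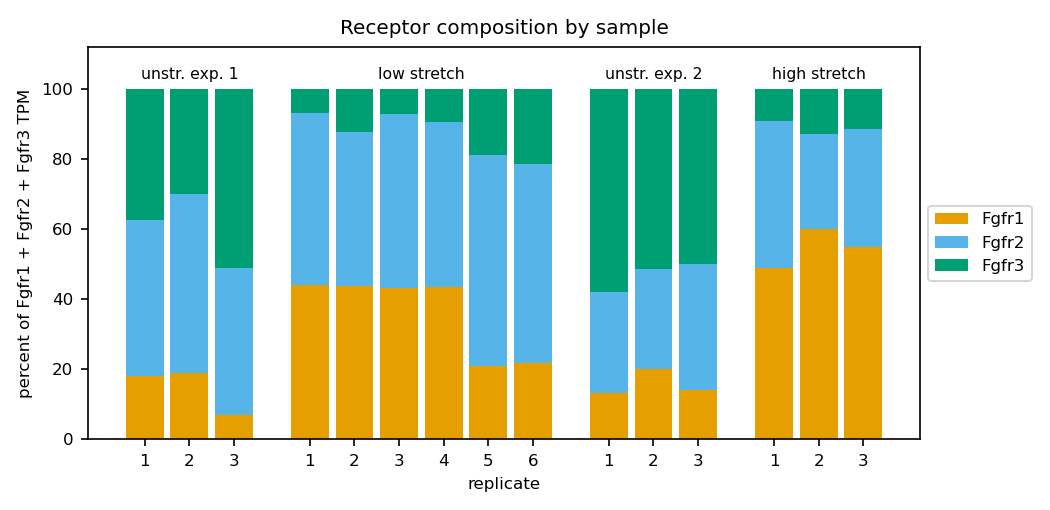
Share of the summed Fgfr1, Fgfr2 and Fgfr3 TPM taken by each receptor, 1 bar per sample. Fgfr3 holds 30.1% to 58.1% in the unstretched samples and 6.83% to 21.5% in the stretched ones, and low-stretch replicates 5 and 6 hold a smaller Fgfr1 share than replicates 1 to 4.

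The transcripts of each receptor were mostly of the IIIc form, the form that usually marks mesenchymal cells. The IIIb share is the TPM of protein-coding transcripts with the IIIb exon over that of transcripts with either exon. For Fgfr3 it was 19.3%, 18.1% and 18.6% in the unstretched samples of experiment 1 and 20.1% to 26.9% (median 22%) under low stretch. In experiment 2 it was 14.4%, 11.7% and 13.8% unstretched and 21.8%, 22.5% and 19.0% under high stretch. The IIIb share of Fgfr3 was thus higher in every stretched sample than in every unstretched sample of its experiment. This share had no test of its own, and how often such shares stand apart over all genes was not counted. In experiment 1 the closest values were 20.1% and 19.3%, with IIIb sums of 1.01 to 3.46 TPM under low stretch. Both forms were lower in amount: in experiment 2, Fgfr3 IIIb transcripts summed to 7.08, 4.40 and 8.77 TPM unstretched and 1.229, 1.504 and 1.380 TPM under high stretch. IIIc transcripts of Fgfr3 summed to 42.2, 33.4 and 54.6 TPM unstretched and 4.42, 5.17 and 5.87 TPM under high stretch.

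For Fgfr1 the IIIb share was 13.5% ± 1.0 unstretched and 12.1% ± 2.1 under low stretch, and 10.5% ± 0.9 and 8.50% ± 1.46 in experiment 2. For Fgfr2 it was 14.5% ± 0.8 and 14.3% ± 0.9, and 16.2% ± 2.2 and 15.03% ± 2.33 (SD, n as above). The ranges of stretched and unstretched samples overlapped for both genes in both experiments. In limma's test of transcript usage, 0 of 20 tested Fgfr and Fgfrl1 transcripts were called under low stretch (0.0144% of all 27720 tested transcripts were, 0.00722% in each direction), with 2 of the 20 at an unadjusted p under 0.05. Under high stretch 0 of 18 were called (0% of all 23408, of which 1881 were under 0.05 unadjusted), and 0 of the 18 were under 0.05 unadjusted. With a pseudocount of 1 TPM, 1 transcript was called under low stretch, Fgfr3-209, which carries IIIc. That setting called 75 of all 27720 transcripts. The log2 ratio of Fgfr3-209 was 0.63 there and 0.35 in the main fit (limma adjusted p = 0.347). All Fgfr3 transcripts summed to 5.99 to 22.6 TPM in low-stretch samples, so the 1 TPM added is not small beside this transcript.

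**Figure D4:**
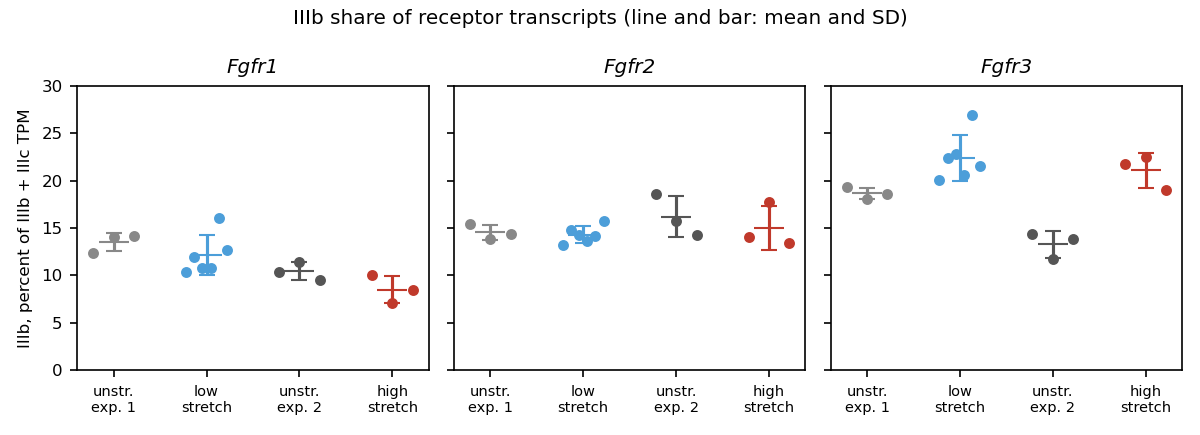
IIIb share of the IIIb plus IIIc TPM of Fgfr1, Fgfr2 and Fgfr3, by sample (points), with mean and SD (lines). For Fgfr3 the stretched samples lie at 19.0% to 26.9%, above the unstretched samples of their own experiment, and for the other receptors the groups overlap.

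No single transcript carried Fgfr3. In unstretched cells of experiment 1, Fgfr3-201 (IIIc) held 19.3% ± 2.1 of the gene's TPM, Fgfr3-217 (neither exon) 16.8% ± 1.4, Fgfr3-209 (IIIc) 15.9% ± 0.5 and Fgfr3-211 (IIIb) 11.9% ± 0.6 (SD, n = 3). Fgfr3-217, which is not part of the IIIb share, ranged from 0% to 20.2% between low-stretch samples and from 12.4% to 17.2% under high stretch. Fgfr3-210 (IIIc) held 8.67% to 13.1% in the means of the 4 groups. Fgfr3-202 (IIIc) held 1.62% ± 2.80 unstretched and 3.63% ± 4.70 under low stretch, and 11.7% ± 1.9 and 9.03% ± 1.24 in experiment 2. Fgfr3-211 held 16.2% ± 1.8 (n = 6) under low stretch. In experiment 2 it held 6.15% ± 5.37 unstretched and 15.5% ± 3.0 under high stretch, and 1 unstretched sample listed it at 0. An exact 0 can be a failed estimate, and the sum over IIIb transcripts used above does not depend on how TPM is divided among them. The IIIb share does depend on how TPM is divided between transcripts with IIIb, IIIc and neither exon. Fgfr3-217 was listed at 0 in low-stretch replicates 1 and 3, and Fgfr3-202 at 12.6% in replicate 3. The part of these estimates in the share was not tested. Transcripts with a retained intron held 17.4% ± 2.4 of Fgfr3 TPM unstretched and 16.1% ± 2.9 under low stretch, and 7.51% ± 1.94 and 5.38% ± 0.60 in experiment 2, so this share was lower in both groups of experiment 2.

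The other receptors had fewer leading transcripts. Fgfr1-202 and Fgfr1-203, both with IIIc, held 33.5% ± 2.0 and 25.9% ± 3.5 of Fgfr1 TPM in unstretched cells of experiment 1 and 36.1% ± 1.6 and 26.5% ± 2.4 under low stretch. In experiment 2 they held 43.7% ± 3.2 and 29.8% ± 2.5 unstretched and 39.3% ± 3.3 and 32.3% ± 2.6 under high stretch. Fgfr2-207 and Fgfr2-215, again with IIIc, held 28.9% ± 2.3 and 26.4% ± 1.1 of Fgfr2 TPM unstretched and 28.5% ± 1.2 and 26.5% ± 1.5 under low stretch, and 33.4% ± 1.1 and 33.5% ± 3.6 against 34.2% ± 1.5 and 32.6% ± 1.8 in experiment 2. The leading IIIb transcripts held less, with Fgfr1-213 at 10.3% ± 0.6 and Fgfr2-208 at 9.30% ± 0.28 of their genes in unstretched cells of experiment 1. Fgfr2-217, with neither exon, held 15.2% ± 1.5 in unstretched and 16.2% ± 1.5 in low-stretch cells and 5.14% ± 3.68 and 7.30% ± 4.03 in experiment 2, and the retained-intron transcript Fgfr2-221 held 11.2% to 11.9% in the means of the 4 groups. Fgfrl1 was mostly Fgfrl1-201, at 82.4% to 87.1% of its TPM in the means of the 4 groups.

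The genes whose pattern was most like that of Fgfr3 were sought among 12936 genes with a mean of at least 1 CPM, by Pearson's r of log2 CPM over the 15 samples, each experiment centred on its own unstretched samples. The 5 highest were Gm31036 (r = 0.99), Gpc4 (0.99), Cldn19 (0.98), Gm12153 (0.98) and Cdk15 (0.98). Gpc4 is a glypican, a heparan sulfate proteoglycan anchored to the cell surface, and Cldn19 is a tight junction claudin. Gm31036 and Gm12153 are predicted genes, and Cdk15 is a member of the cyclin-dependent kinase family. Fgf1 ranked 120 (r = 0.94), Fgfr2 had r = 0.81 and Fgfr1 had r = -0.89. All these values share the same libraries and the split between stretched and unstretched samples, so they describe a likeness and carry no p-value.

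Of 86 other genes of the pathway, 85 were in the count table. This list was also chosen with earlier results of these data known. The shares called below therefore describe the list and its groups, and nothing is read from them. Under low stretch 10 of 69 tested were called, 3 higher and 7 lower, which is 14.5% against the background of 5.45%. The heparan sulfate group, the proteoglycans and enzymes that build the chains FGFs bind with their receptors, held 8 of these 10 among 20 tested. The glypican Gpc4 fell from 167 ± 23 to 94.35 ± 16.02 CPM (SD; log2 fold change -0.83 ± 0.14, SE, edgeR adjusted p = 0.00955), and Gpc2 fell by 0.74 (0.0473). The sulfotransferases Hs6st2 and Hs6st1, which add 6-O-sulfate to heparan sulfate, fell by 0.73 (0.0324) and 0.47 (0.0293), and the syndecan Sdc4 fell by 0.40 (0.0224). The syndecan Sdc3 rose by 0.75 (edgeR adjusted p = 0.0467), the chain polymerase subunit Ext1 by 0.53 (0.00752) and the epimerase Glce by 0.36 (0.0434). Sdc4 and Glce have the smallest changes of the 10 and are named beside the rule, after their values were seen, to complete the count. Outside this group the early-response transcription factor Egr1 fell from 135 ± 47 to 53.2 ± 8.2 CPM (-1.36 ± 0.19, edgeR adjusted p = 0.00507), and the adaptor Gab1 fell by 0.50 (0.0224). Egr1 and Ext1 were called with each of the 9 samples left out in turn. Egr1 was not called in the fit of all 15 samples (edgeR adjusted p = 0.184), nor was Ext1 with the replicate block (edgeR adjusted p = 0.0639). In the fit of all 15 samples Hs6st2 (edgeR adjusted p = 0.0993), Gab1 (0.0844) and Gpc2 (0.0822) were not called either. The same held there for Hs6st1 (0.0576) and Sdc3 (0.052). With the replicate block Gab1 (edgeR adjusted p = 0.0595), Gpc2 (0.171), Hs6st1 (0.148) and Sdc3 (0.121) also lost their call. Gpc2 lost its call in 8 of the 9 fits with a sample left out, Hs6st2 and Sdc3 in 6 of 9 each, and Gab1 and Hs6st1 in 3 of 9 each. The count fell to between 2 and 6 without low-stretch replicate 1, 2, 3 or 4 or without unstretched replicate 1 or 3, with 2 left without unstretched replicate 3, when Gpc4 was not called (edgeR adjusted p = 0.0585).

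Under high stretch 8 of 68 tested genes were called, 6 higher and 2 lower, which is 11.8% against 3.47%. Nothing is read from this share either, for the same reason. Among the transcriptional targets 3 of 5 rose: Etv4 from 8.48 ± 6.38 to 48.8 ± 3.6 CPM (SD, n = 3; log2 fold change 2.55 ± 0.47, SE, edgeR adjusted p = 0.0289), Fosl1 from 5.09 ± 2.08 to 14.96 ± 1.12 CPM (1.58 ± 0.30, 0.0309) and Etv5 from 15.2 ± 5.4 to 35.9 ± 3.1 CPM (1.26 ± 0.26, 0.0438). Among the feedback inhibitors 2 of 10 rose, the ERK phosphatase Dusp4 from 25.3 ± 2.7 to 58.7 ± 12.0 CPM (1.24 ± 0.21, edgeR adjusted p = 0.0233) and Spred3 from 23.5 ± 2.3 to 41.2 ± 2.6 CPM (0.83 ± 0.17, 0.0427). In the heparan sulfate group 2 of 20 were called: Sdc3 rose by 1.24 (edgeR adjusted p = 0.0253) and Gpc4 fell by 1.07 (0.0146). The ligand Fgf18, which had the most counts of the 15 other secreted FGFs in unstretched cells of experiment 2, fell from 35.6 ± 4.4 to 13.9 ± 4.2 CPM (-1.34 ± 0.24, edgeR adjusted p = 0.0262). Each of these 8 genes lost its call when high-stretch replicate 1, high-stretch replicate 3 or unstretched replicate 1 was left out, leaving 0 called by edgeR of 67 or 68 tested, with 16 at an unadjusted p under 0.05. Without high-stretch replicate 2, 2 were called, and without unstretched replicate 3, 17 were. Fosl1 (edgeR adjusted p = 0.0851), Etv5 (0.0955) and Etv4 (0.0501) were not called in the fit of all 15 samples.

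Of 5 genes widely used as readouts of FGF signalling through ERK, Etv4 and Etv5 were called under high stretch, and none was called under low stretch unless the position run was a block. Spry2 had log2 fold changes of 0.29 ± 0.22 under low and 0.28 ± 0.34 under high stretch (SE; edgeR adjusted p = 0.46 and 0.849). Spry4 had -0.01 ± 0.38 and 0.66 ± 0.36 (0.989 and 0.494), and Dusp6 had 0.53 ± 0.49 and 0.66 ± 0.39 (edgeR adjusted p = 0.546 and 0.549). Without unstretched replicate 3 of experiment 2, Dusp6 (1.27, edgeR adjusted p = 0.00797) and Spry4 (1.08, 0.0471) were called under high stretch, and with the run as a block Dusp6 was called there too (0.82, 0.0364). In the fit of all 15 samples Etv4 (2.53, edgeR adjusted p = 0.0501) and Etv5 (1.24, 0.0955) were no longer called under high stretch. Under low stretch Etv4 had 1.76 ± 0.72 and Etv5 had 0.61 ± 0.42 (edgeR adjusted p = 0.172 and 0.409), and with the run as a block both were called there (Etv4 1.82, edgeR adjusted p = 4.73e-05; Etv5 0.49, 0.0426). Within the runs Etv4 was higher in 6 of 6 low-stretch and 3 of 3 high-stretch samples, by 1.48 to 2.42 and by 1.65 to 3.54 on the log2 scale. Etv5 was higher in 4 of 6 and 3 of 3. Set against each other, the low and high effects on these 5 genes gave an edgeR adjusted p of 1 for each. Egr1, called under low stretch, had -2.77 ± 0.87 under high stretch (edgeR adjusted p = 0.162), with unstretched replicate 3 at 1060 CPM and the other unstretched samples at 104 and 115.6 CPM.

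**Figure D5:**
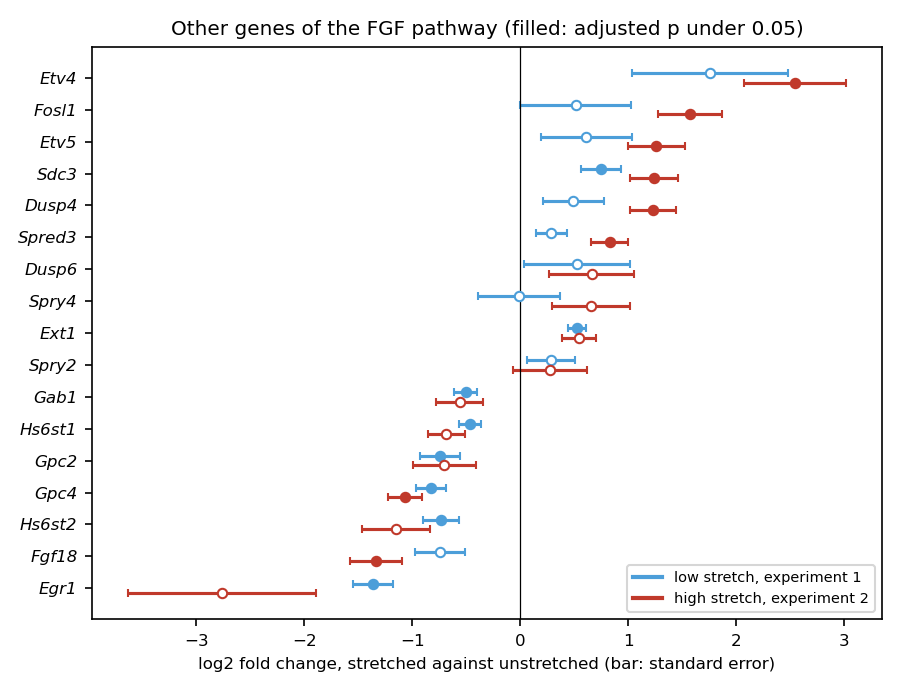
Log2 fold changes (points) with standard errors (bars) of the named genes of the FGF pathway, low stretch (blue) and high stretch (red) each against its own unstretched samples, filled where the edgeR adjusted p is under 0.05. Etv4 has the highest value in both comparisons, at 1.76 and 2.55, and Egr1 the lowest, with the widest bar under high stretch.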

How the data were processed

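The counts per gene were deposited by the authors as raw whole numbers, made with STAR 2.7.5c and featureCounts (Subread 2.0.0) on mm39, per the submitters' processing notes. The transcript TPM values deposited by the authors came from Salmon 1.9.0, per the same notes, and keep no depth. The annotation release, the strand setting and how read pairs were counted are not given in the sources used here. Symbols, transcript classes and sequences came from GENCODE M21 (GRCm38), which is another build than mm39, so its coordinates are for that build alone. Of 55416 gene IDs 52083 had a symbol, and of 140789 transcript IDs 137189 matched.

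Genes were tested with edgeR 4.0.16 (quasi-likelihood, TMM, filterByExpr with a minimum count of 10) in R 4.3.3, with Benjamini-Hochberg adjustment over all genes tested and a threshold of 0.05. Transcript usage was tested with limma 3.58.1 on log2 of each transcript against the rest of its gene (0.1 TPM added to both), for a gene mean of at least 1 TPM and a mean fraction of 0.05 to 0.95. DESeq2 1.42.0, other size factors, filters and pseudocounts, a replicate block, a block for position runs and leaving out each sample were alternatives. The replicate block used replicates 1 to 3 of each group alone, so it left out low-stretch replicates 4 to 6. A IIIb or IIIc exon is the first or second exon of an adjacent mutually exclusive pair of 120 to 180 bases with shared neighbours. A count of 3 was the limit that a count of 0 allows.

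The 8 genes and the pathway and marker lists were chosen with earlier results of these data known. Named are the 8 genes, the 5 readouts Spry2, Spry4, Dusp6, Etv4 and Etv5, up to 8 called pathway genes with the largest change per stretch comparison, Fgfr transcripts with a share of at least 10% in any group, and the 5 genes most like Fgfr3. The tests were also run on simulated data. The level of 1 podocyte marker of the list and the other alternative exon sequences are not reported here.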

Additional observations from a re-analysis of the deposited data

Results flagged for a closer look

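Fgfr4 in low-stretch replicate 1 stood at 0.141 CPM (44 counts), far from the other 5 low-stretch samples, which had 0.0157 to 0.0417 CPM (5 to 17 counts). Over 31 groups of samples checked in this way it was the only such value, and chance alone gives about 1 in 20.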

How the results depend on the processing

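Fgfr3 kept its direction and its call in 7 of 7 other settings in both comparisons (log2 fold change -2.64 to -2.12 under low and -2.79 to -2.75 under high stretch). Of the 8 FGF genes, 2 were called under low stretch, with 5 under the position run block and 0 to 3 with samples left out. Under high stretch 3 were called, in 7 of 7 other settings, and 1 to 3 with samples left out. Between unstretched groups 3 were called, and 3 to 4 with samples left out, and for the difference between effects 0 throughout, where the position run block called 3 of all genes. Of the pathway genes under low stretch (10 called), DESeq2 called 16, the fit of all 15 samples 3, the replicate block 3 and the position run block 23, and leaving out samples gave 2 to 12. The replicate block left out low-stretch replicates 4 to 6. In its low-stretch counts here and below, the block and the smaller number of samples cannot be told apart. Under high stretch (8 called) DESeq2 called 15, the fit of all 15 samples 13, the replicate block 15 and the position run block 15, and leaving out samples gave 0 to 17. For transcript usage under low stretch a pseudocount of 1 TPM gave 1 call in place of 0, and leaving out samples gave 0 to 0. Over all transcripts that pseudocount gave 75 calls in place of 4. Over all genes, low stretch gave 1181 calls, with 2837 by DESeq2, 640 in the fit of all 15 samples, 490 with the replicate block and 6106 with the position run block. High stretch gave 643, with 1403 by DESeq2, 1050 without a filter, 414 at a mean count of at least 100, 1488 in the fit of all 15 samples and 1546 with either block.

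Signs also turned for some values that were not called or had no test. Spry4 under low stretch (-0.01) was 0.000408 in the fit of all 15 samples, 0.42 with the replicate block, 0.014 with the position run block, and -0.31 to 0.55 with samples left out, above 0 without unstretched replicate 2, low-stretch replicate 5 or low-stretch replicate 6. Fgf1 between unstretched groups (-0.17) was -0.38 to 0.10 with samples left out, above 0 without unstretched replicate 3 of experiment 1. In the difference between effects, Fgfr2 (-0.13) was 0.040 with the replicate block and -0.25 to 0.12 with samples left out, above 0 without unstretched replicate 3 of experiment 2. Fgfrl1 (-0.11) was -0.23 to 0.046 with samples left out, above 0 without high-stretch replicate 1 or unstretched replicate 2 of experiment 2. With samples left out, the stretched minus unstretched Fgfr2 IIIb share was -0.604 to 0.209 points (low) and -2.47 to 0.0641 points (high), and the Fgfr2 share of receptor TPM under high stretch -0.667 to 6.74 points. The cause was not tested. In settings chosen after seeing the data, the stretched minus unstretched Fgfr3 IIIb share was 3.66 and 8.03 percentage points with every transcript type, and the Fgfr3 share of receptor TPM was -26.99 and -42.73 points with protein-coding transcripts.

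Samples with the same replicate number were not paired in the main fit. How far they deviated together is described without a test. Their mean correlation was -0.0713 (range -0.44 to 0.365) in experiment 1, 0.176 (-0.164 to 0.45) in experiment 2 and 0.172 (-0.0617 to 0.341) between unstretched groups. Samples of the same position run in experiment 1 had 0.438 against -0.218 for others. Low-stretch replicates 2 and 3 lie in other runs than the unstretched samples of their number, so the replicate block joined samples of different runs there. In experiment 2 the replicate numbers and the position runs are the same, and samples of different runs had -0.0952. The replicate block left the count of the 8 genes at 2 and 3 in the stretch comparisons and gave 4 between unstretched groups, where Fgfr3 was 0.67 (edgeR adjusted p = 0.0273). Depth limits Fgfr4 and Fgf7, and with 3 samples a group a gene that was not called may still differ.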
